A study of Mus musculus with 4 samples.

Results

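The ionotropic glutamate receptor genes examined here are the 4 AMPA receptor subunits (Gria1 to Gria4) and the 5 kainate receptor subunits (Grik1 to Grik5). They were chosen by gene symbol, with earlier results of these data known. All 9 were among the 15409 gene rows of brain septal tissue, and all 9 passed the filter at a mean of 1 CPM (reads of a gene scaled to a common library total). The septum is a midline forebrain region between the lateral ventricles that receives glutamatergic input from the hippocampus. The genotypes were TCRb-/-, in which the T cell receptor beta gene is disrupted, and wild type (WT). Both had gone through restraint stress in DecapiCones, 30 min at a time over 3 days, with tissue taken 1.5 h after the final session, so no group here was unstressed. Each genotype had 1 library in experiment 1 and 1 in experiment 2, and each library was a pool of tissue from 4 to 5 mice. Sex, age and strain were not given in the labels used here.

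AMPA and kainate receptors are cation channels opened by glutamate, and each is an assembly of 4 subunits around a pore. AMPA receptors carry most of the fast excitatory current in the brain. Kainate receptors act on both sides of the synapse, and Grik4 and Grik5 encode subunits that form working channels only together with the products of Grik1, Grik2 or Grik3. Gria2 has a special place among the AMPA subunits, because its pre-mRNA is edited by the adenosine deaminase Adarb1 at a glutamine codon of the pore loop, which then reads as arginine and makes the channel nearly impermeable to calcium. Grik1 and Grik2 transcripts are edited at the matching codon to a lesser degree.

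The coding bases around that pore codon are shown because this is the codon at which Gria2 transcripts are edited, and to show how alike the 9 genes are there before editing. Capitals mark the codon at the Q/R site as the genome encodes it, before editing.
Gria1: tcgctgggggccttcatgCAGcaag
Gria2: tccttgggtgcctttatgCAGcaag
Gria3: tccttgggtgcttttatgCAGcaag
Gria4: tccctgggtgcctttatgCAAcaag
Grik1: ggcgttggagctctcatgCAGcaag
Grik2: ggagttggagctctcatgCAGcaag
Grik3: ggaatgggctccctgatgCAGcaag
Grik4: ccggttggaggcttcatgCAGcaag
Grik5: cccgtgggtggcttcatgCAGcagg

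These windows of 25 bases were read 5′ to 3′ from GENCODE M21 transcripts (GRCm38), in each gene from the transcript with the longest coding sequence. The codon begins at base 19. It was CAG in every member except Gria4, where it was CAA, and both codons encode glutamine. The Gria3 window differed from that of Gria2 at 1 base, Gria4 at 2 and Gria1 at 4, and the kainate windows differed from Gria2 at 5 to 9 bases. Grik1 and Grik2 differed from each other at 1 base. The window lies in transcript exon 11 of 16 in Gria1 (chr11:57243076-57243100, plus strand), Gria2 (chr3:80706907-80706931, minus strand) and Gria3 (chrX:41610247-41610271, plus strand). In Gria4 it lies in exon 12 of 17 (chr9:4464133-4464157, minus strand). It lies in exon 13 of 18 in Grik1 (chr16:87940538-87940562, minus strand), and in exon 12 of 16 in Grik2 (chr10:49244325-49244349, minus strand) and Grik3 (chr4:125691189-125691213, plus strand). In Grik4 it lies in exon 14 of 19 (chr9:42547619-42547643, minus strand), and in Grik5 in exon 15 of 20 (chr7:25022493-25022517, minus strand). The exon ended at the last base shown in Grik1, Grik2 and Grik3, ran 19 bases further in each AMPA gene, and 52 bases further in Grik4 and Grik5. The deposited values are counts per gene and hold no base calls, so the edited share was not measured here, nor were splice forms.

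The libraries held between 19988137 and 26210790 reads. The genotype labels held for Trbc2, which encodes a constant region of that receptor chain: TCRb-/- replicates 1 and 2 had 0 reads (a limit of 0.122 and 0.150 CPM, for counting error only), and WT replicates 1 and 2 had 169 and 86. Septal markers were present, with 9 of 10 listed and a summed level between 210.4 and 244 CPM. Drd3 was not among the listed rows. Markers of neighbouring tissue differed between libraries. The summed level of 10 striatal markers was 4382 and 955 CPM in TCRb-/- and 3927 and 2382 CPM in WT, and none of the markers of any list was at 0 reads.

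Levels of the 9 genes were compared with each other as CPM per kb of the longest annotated transcript. Gria1 and Gria2 were the most abundant, with means over 4 libraries of 47.5 ± 10.3 and 45.01 ± 9.02 CPM per kb (SD, n = 4). They stood at the 87.9 and 87.2 percentiles of 14981 genes with a length. Their order was not stable, since Gria1 was above Gria2 in 2 of the 4 libraries only. It also turned on the length used, since by reads without a length Gria2 made up 54.7% of the AMPA class and Gria1 30.8%, and by the length of the union of exons 33.8% and 48.9%. Grik5 (14.3 ± 2.69 CPM per kb) and Gria3 (14.05 ± 3.18 CPM per kb) followed, and their ranges overlapped too. Gria4 came next at 9.05 ± 0.455 CPM per kb, by this length apart from its neighbours in every library. By the length of the union of exons it was above Gria3 in experiment 2 (7.90 against 5.58 CPM per kb in TCRb-/-, 7.24 against 6.41 in WT). By that length it was below Gria3 in experiment 1 (8.13 against 8.66 CPM per kb in TCRb-/-, 7.96 against 9.01 in WT). Grik1 (3.78 ± 0.293), Grik2 (2.84 ± 0.802), Grik3 (1.99 ± 0.353) and Grik4 (1.73 ± 0.261 CPM per kb) were lowest. Within each library they kept that order, although the ranges of neighbours overlapped across libraries. This order too turned on length, since by reads without a length Grik2 made up 20.9% of the kainate class, Grik3 14.1%, Grik1 11.2% and Grik4 8.09%, and Gria3, at a mean of 73.1 CPM, was above Grik5, at 58.01 CPM. AMPA subunits together exceeded kainate subunits by 4.34 to 4.90 times per kb in the 4 libraries. The size of that ratio also turned on length. Without a length, AMPA sums were 1043 and 718 CPM in TCRb-/- and 937 and 711 CPM in WT. Kainate sums were 151 and 105 CPM in TCRb-/- and 140 and 111 CPM in WT.

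**Figure D1:**
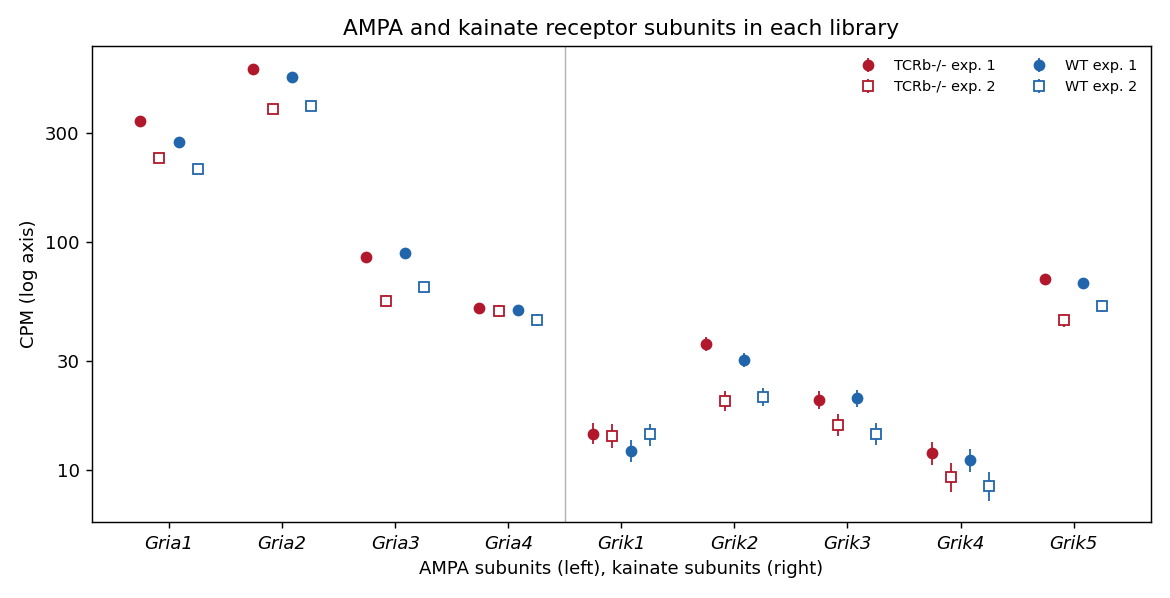
CPM on a log axis of each subunit gene in each library, with exact 95% counting intervals as bars (shorter than the symbol for abundant genes). Circles are experiment 1 and open squares experiment 2, red TCRb-/- and blue WT. For every gene but Grik1 both open squares lie below both circles, while red and blue overlap in all 9 genes.

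Values of a genotype are given with replicate 1 (experiment 1) first and replicate 2 (experiment 2) second. Gria1 encodes GluA1, the subunit most tied to activity-dependent insertion of AMPA receptors at synapses. It had 339 and 233 CPM in TCRb-/- against 274 and 208 CPM in WT. TCRb-/- was above WT within each experiment, but the genotypes overlapped because TCRb-/- replicate 2 lay below WT replicate 1. Gria2, which encodes GluA2, had 568 and 381 CPM in TCRb-/- and 525 and 394 CPM in WT. Its libraries were ordered by experiment and not by genotype. Gria3, an X-linked gene for GluA3, had 85.4 and 55.03 CPM in TCRb-/- and 88.9 and 63.2 CPM in WT, with TCRb-/- below WT within each experiment. Gria4 encodes GluA4, a subunit with fast kinetics found in many interneurons, and was the steadiest member, at 51.2 and 49.8 CPM in TCRb-/- and 50.2 and 45.6 CPM in WT. Its highest library was 1.12 times its lowest.

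Among the kainate subunits that form channels by themselves, Grik1 (GluK1) had 14.5 and 14.2 CPM in TCRb-/- against 12.2 and 14.4 CPM in WT. WT replicate 1 was the lowest library, and the counting intervals of all 4 libraries overlapped with each other. Grik2 (GluK2) had 35.7 and 20.1 CPM in TCRb-/- and 30.4 and 20.98 CPM in WT, the widest range of the 9 genes at 1.78 times from lowest to highest. Grik3 (GluK3) had 20.3 and 15.8 CPM in TCRb-/- and 20.7 and 14.5 CPM in WT. Both genes were high in experiment 1 and low in experiment 2 whatever the genotype.

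Of the subunits that need a partner, Grik4 (GluK4) had 11.9 and 9.31 CPM in TCRb-/- and 11.1 and 8.54 CPM in WT, and was the lowest member per kb. It rested on 186 to 292 reads a library. Grik5 (GluK5) had 68.5 and 45.4 CPM in TCRb-/- and 65.7 and 52.4 CPM in WT, and was by far the most abundant kainate transcript. Both genes were again lower in the libraries of experiment 2.

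The make-up of each receptor class was described as the share of each member in the summed CPM per kb of its class. Gria1 took 43.1% and 42.6% of the AMPA class in TCRb-/- replicates 1 and 2, and 39.1% in each WT library. Gria3 took 11.6% and 10.7% in TCRb-/- against 13.5% and 12.6% in WT, and Gria2 38.6% and 37.3% against 40.1% and 39.5%. For these 3 shares the genotypes did not overlap, with Gria1 higher and Gria2 and Gria3 lower in TCRb-/-. Shares of a class add up to 100, so these are not separate results. An exact two-sided permutation test of 2 libraries against 2 gave a p of 0.333 for each, which is the smallest it can give. Gria4 took 6.65% and 9.31% in TCRb-/- and 7.30% and 8.73% in WT, and was higher in experiment 2 in both genotypes.

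In the kainate class Grik5 took 58.3% and 54.5% in TCRb-/- and 60.1% and 58.3% in WT. Grik1 took 13.7% and 18.9% in TCRb-/- and 12.4% and 17.8% in WT, so that its share was larger in experiment 2. Grik2 took 13.1% and 10.4% in TCRb-/- and 11.96% and 10.1% in WT, a smaller share in experiment 2. The remaining members, Grik3 and Grik4, stayed between 6.56% and 8.57%. By genotype and with the longest transcript as length, Grik4 was the only kainate member whose shares did not overlap. It had 6.98% and 7.70% in TCRb-/- and 6.98% and 6.56% in WT, a gap smaller than the rounding shown. This turned on length. Without a length Grik4 overlapped, at 7.87% and 8.89% in TCRb-/- and 7.90% and 7.71% in WT. Grik5 then did not, at 45.4% and 43.4% in TCRb-/- and 46.9% and 47.3% in WT. By the union of exons neither overlapped, with Grik5 at 59.3% and 55.9% in TCRb-/- and 60.6% and 59.98% in WT.

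Ratios between members within a library were counted for all 36 pairs, as differences on the log2(CPM + 1) scale. No gene length enters them. The added 1 shifts them from ratios of CPM, most at low levels, so whether a pair overlaps can depend on it. Gria1 to Grik4, at 4.72 and 4.50 in TCRb-/- and 4.51 and 4.45 in WT, overlapped only narrowly between genotypes. The reads were 8328 to 292 and 4649 to 186 in TCRb-/-, and 7173 to 290 and 4656 to 191 in WT. As plain ratios of these reads, the pair did not overlap between genotypes and did overlap between experiments. On the scale used here both were the other way round. Ratios did not overlap between genotypes in 10 of 36 pairs (27.8%), against 18.6% of all pairs of genes tested. Gria3 was in 5 of the 10 pairs and Gria1 in 4. Pairs share members and are not independent, so the 2 percentages were not compared by a test. Gria3 to Grik4 was among the 10 by a gap of only 0.0046. The log2 ratio of Gria1 to Gria2 was -0.74 and -0.71 in TCRb-/- replicates 1 and 2 and -0.94 and -0.92 in WT. That of Gria1 to Gria3 was 1.98 and 2.06 in TCRb-/- and 1.61 and 1.70 in WT, the widest gap between genotypes (0.27) of any pair. Between experiments, 24 of 36 pairs (66.7%) did not overlap, close to the 65.4% of all pairs. Gria4 and Grik1 were in 8 such pairs each, that is, with every other member.

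**Figure D2:**
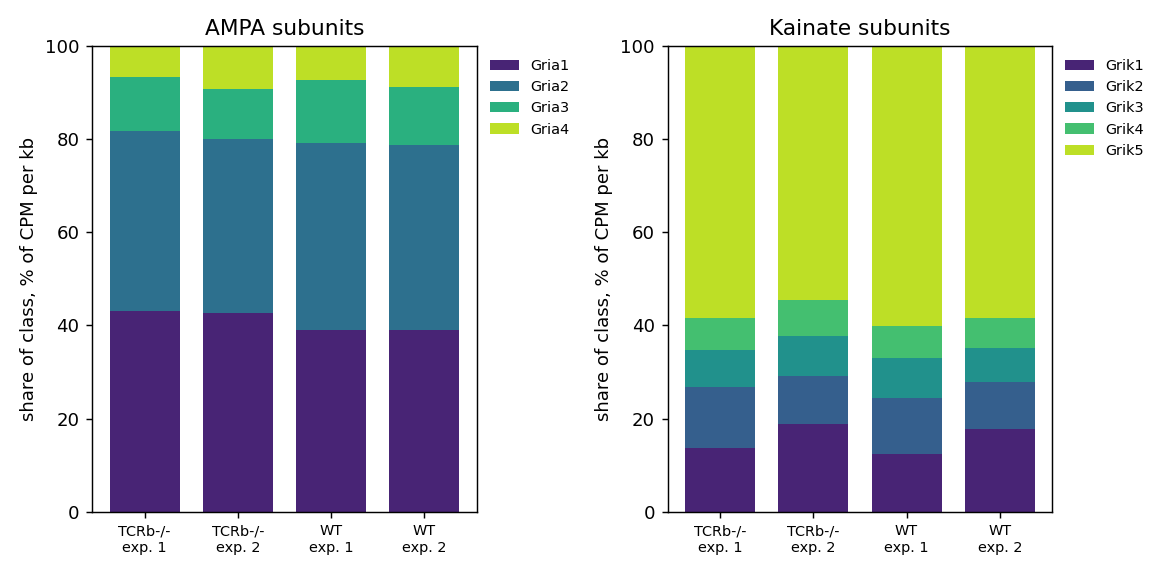
Share of each subunit in the summed CPM per kb of its receptor class (y axis, %) in each library (x axis). The Gria1 segment is 42.6% to 43.1% in TCRb-/- and 39.1% in WT, and the Grik1 segment is larger in experiment 2 in both genotypes.

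The comparison of genotypes asked whether receptor subunit transcripts differed between septal tissue with and without T cell receptor beta after restraint. None of the 9 genes passed the threshold. In limma on log2(CPM + 1), 0 of 13912 genes (0%) passed at an adjusted p under 0.05, and 43 had an unadjusted p under 0.05. With the experiment as a block, 2 genes passed (0.0144%), Trbc2 and Ttr, and no subunit gene was among them. The fitted difference, TCRb-/- minus WT, was largest for Gria1 at 0.23 (SE 0.23, 95% interval -0.36 to 0.82, limma adjusted p 1.00). With the block the same difference had an SE of 0.070 and an interval of 0.070 to 0.40, with an unadjusted limma p of 0.0112 and an adjusted p of 0.848. An unadjusted p under 0.05 with the block was reached by 5.64% of all genes tested and by Gria1 alone of the 9.

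Of the other members, Gria3 had the lowest difference at -0.13 and Grik1 the highest at 0.11, with adjusted p-values of 1.00 in limma. Their 95% intervals without the block were wide, from -0.80 to 0.55 for Gria3 and from -0.73 to 0.89 for Grik2. With the block they were narrower, from -0.31 to 0.055 for Gria3 and from -0.17 to 0.34 for Grik2. With the block, the intervals of the 8 members other than Gria1 all included 0 and ran from -0.31 at the lowest bound (Gria3) to 0.40 at the highest (Grik4). The median difference of the 9 genes was 0.077, against 0.00069 for all genes tested. Within the experiments, the median of the 9 genes was 0.094 in experiment 1 and -0.019 in experiment 2.

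The genotype difference was also read within each experiment, where there is 1 library per genotype and no test. Gria1 differed by 0.31 in experiment 1 and 0.16 in experiment 2, Gria4 by 0.030 and 0.12, and Grik4 by 0.094 and 0.11, higher in TCRb-/- in both. Gria3 differed by -0.056 and -0.20, lower in both. The other 5 members changed sign. The background was 27% of genes higher in both, 24.5% lower in both and 48.4% with opposite signs. No member had TCRb-/- libraries both above both WT libraries (9.76% of all genes tested did) or both below (8.04%), 17.8% together. Choroid plexus markers were higher in TCRb-/- within both experiments in 8 of 8 cases. They summed to 2108 and 6784 CPM in TCRb-/- and 1287 and 4121 CPM in WT. Striatal markers had opposite signs in the experiments in 10 of 10 cases, with median differences of 0.17 in experiment 1 and -1.26 in experiment 2. Thalamic markers had medians of -0.13 in experiment 1 and 0.74 in experiment 2. The part of these markers in the genotype values was not tested.

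**Figure D3:**
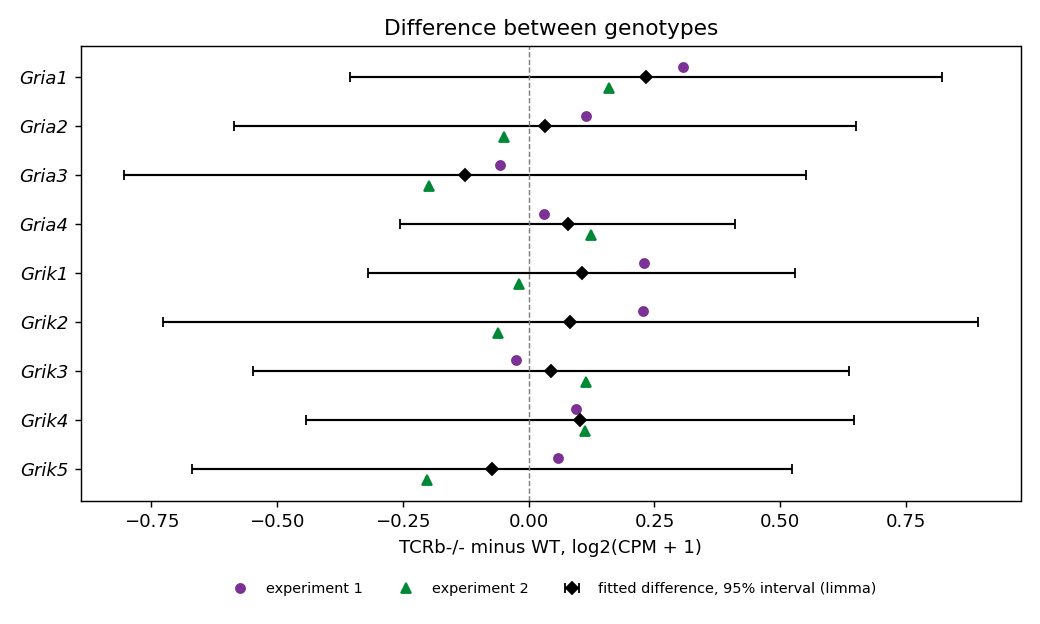
Genotype difference of each subunit gene (x axis, TCRb-/- minus WT on the log2(CPM + 1) scale). Diamonds are the fitted values with 95% intervals from limma without the block, circles and triangles the differences within experiments 1 and 2. All 9 intervals include 0, and circle and triangle lie on opposite sides of 0 for Gria2, Grik1, Grik2, Grik3 and Grik5.

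Between experiments, 6 of the 9 genes fell from experiment 1 to experiment 2 at an adjusted p under 0.05 and none rose, against 14.7% of all genes tested that were called lower and 8.95% called higher. They were Gria1, Gria2, Gria3, Grik2, Grik3 and Grik5. With genotype as a block the count was again 6, against 15.4% of all genes. Both libraries of experiment 2 lay below both of experiment 1 in 8 of 9 genes, against 37.2% of all genes tested, and above in none, against 30.1%. The exception was Grik1. The 9 genes had a median of -0.45, against -0.030 for all genes tested. By longest transcript, the median was -0.087 for genes of 3 to 5 kb, -0.21 for 5 to 7 kb and -0.22 for 7 to 11 kb.

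The largest fall was that of Grik2, from 33.04 ± 3.78 CPM in experiment 1 to 20.5 ± 0.647 CPM in experiment 2 (SD, n = 2 each). Its log2 difference was -0.66 (SE 0.11, limma adjusted p 0.00858). Gria3 fell from 87.1 ± 2.43 to 59.1 ± 5.80 CPM, a log2 difference of -0.55 (SE 0.085, limma adjusted p 0.00718). Gria2 fell from 546 ± 30.4 to 387 ± 9.48 CPM, a difference of -0.49 (SE 0.068, limma adjusted p 0.00582), and Gria1 from 306 ± 46.01 to 220.4 ± 17.2 CPM, a difference of -0.47 (SE 0.11, limma adjusted p 0.0196). The 3 most abundant AMPA transcripts by read count thus fell by a like amount.

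Grik5 fell from 67.1 ± 1.92 to 48.9 ± 4.94 CPM, a difference of -0.45 (limma adjusted p 0.0133), and Grik3 from 20.5 ± 0.269 to 15.1 ± 0.897 CPM, a difference of -0.42 (limma adjusted p 0.0302). Grik3 lost its call under quantile normalization and when any of 3 libraries was left out. Grik4 had 11.5 ± 0.575 and 8.92 ± 0.540 CPM, a difference of -0.33 that missed the threshold (limma adjusted p 0.101). Gria4, at 50.7 ± 0.763 and 47.7 ± 2.98 CPM, differed by -0.087 with a 95% interval of -0.27 to 0.10 (limma adjusted p 0.462). Grik1, at 13.3 ± 1.61 and 14.3 ± 0.140 CPM, differed by 0.094 with an interval of -0.20 to 0.39 (limma adjusted p 0.624), and its sign differed between genotypes (-0.030 in TCRb-/- and 0.22 in WT). Without TCRb-/- replicate 1, Gria1 (-0.31, limma adjusted p 0.0628) and Grik5 (-0.42, limma adjusted p 0.0597) lost their calls. Without a mean-variance trend in limma only Grik2 of the 6 called genes remained past the threshold (-0.66, adjusted p 0.0483).

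**Figure D4:**
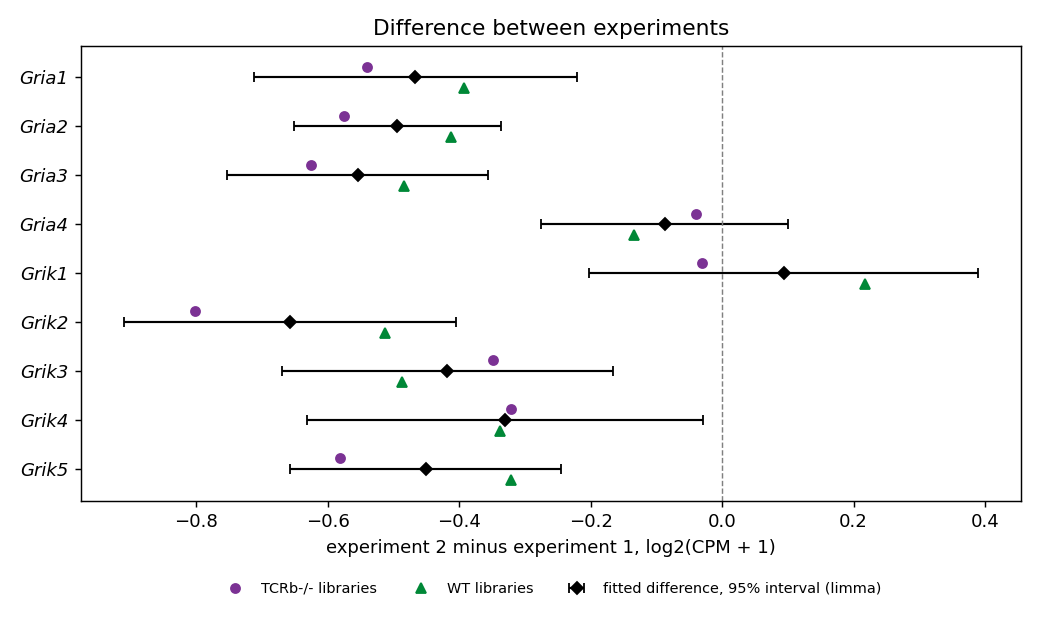
Difference between experiments of each subunit gene (x axis, experiment 2 minus experiment 1 on the log2(CPM + 1) scale). Diamonds are fitted values with unadjusted 95% intervals from limma, circles the TCRb-/- libraries and triangles the WT libraries. Gria4 and Grik1 have intervals that include 0, and the other 7 lie below 0, of which Grik4 did not pass the adjusted threshold.

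Several measures moved with that difference. In bulk tissue, fewer cells of a type and less RNA per cell cannot be told apart. Markers of cortical and hippocampal excitatory neurons summed to 973 and 941 CPM in experiment 1 (TCRb-/- and WT) and to 472 and 575 CPM in experiment 2, with 7 of 8 called lower. Among them Slc17a7, the vesicular glutamate transporter of those neurons, had 146 and 178 CPM in experiment 1 and 24.01 and 20.9 CPM in experiment 2. Striatal markers were called lower in 10 of 10 cases, choroid plexus markers higher in 7 of 8 and thalamic markers higher in 5 of 7. Septal markers had 1 of 9 called lower and 2 higher, with summed levels of 210.4 and 215 CPM in experiment 1 and 240.2 and 244 CPM in experiment 2. Pan-neuronal markers summed to 5401 and 5942 CPM in experiment 1 and 5516 and 5608 CPM in experiment 2. The largest part of that sum was Snap25 (3433 and 3830 CPM in experiment 1), which differed by 0.025. Of the 6 markers 3 were called lower, Rbfox3 (-0.34), Syt1 (-0.33) and Map2 (-0.40), and 1 higher, Tubb3 (0.31). Across 13548 genes, which are not independent, the difference between experiments had a Spearman rho of -0.446 with transcript length, and the longest transcripts of the 9 genes were 3.66 to 10.4 kb against a median of 3.43 kb. The part of these measures in the fall of the receptor genes was not tested.

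A set of 42 genes listed as associated with these receptors, by assembly, transport, anchoring or otherwise, was read beside the subunits. Of this set Cacng7 did not pass the filter. In the genotype comparison 0 of 41 passed in limma with or without the block, and the median difference was 0.011. The smallest unadjusted p with the block belonged to Cacng5, which encodes a transmembrane AMPA receptor regulatory protein. It had 78.1 and 80.6 CPM in TCRb-/- against 55.7 and 66.9 CPM in WT, without overlap, a difference of 0.37 (limma adjusted p 0.714 with the block). Cpt1c, an endoplasmic reticulum partner of AMPA receptors, had 131 and 125 CPM in TCRb-/- and 106 and 117 CPM in WT. Nptx2, a secreted pentraxin that clusters AMPA receptors, had 18.8 and 23.2 CPM against 17.6 and 14.3 CPM. Sacm1l, a phosphoinositide phosphatase, had 96.5 and 114.97 CPM against 127 and 123 CPM, lower in both TCRb-/- libraries. In the gene family of Adarb1, Adarb1 had 56.9 and 66.9 CPM in TCRb-/- and 59.2 and 53.7 CPM in WT. Adarb2 of that family had 11.1 and 12.5 CPM against 14.7 and 13.4 CPM, and editing activity was not measured. Neto2, an auxiliary subunit of kainate receptors, had 59.4 and 32.4 CPM against 62.9 and 44.5 CPM. The genotype difference of Grip2, a scaffold of AMPA receptors, was 0.096. None of these passed the adjusted threshold.

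Between experiments 17 of the 41 genes fell and 1 rose in limma, with a median of -0.12, against 14.7% and 8.95% of all genes tested and a median of -0.030. With genotype as a block 16 fell, against 15.4% of all genes. Of the 12 AMPA auxiliary subunits tested, 5 fell and none rose, and with genotype as a block 4 fell, against 14.7% and 15.4% of all genes. The call lost was that of Cnih3 (limma adjusted p 0.0473 without and 0.0532 with the block). Gsg1l, a claudin-like auxiliary subunit, fell most, from 86.9 and 84.2 CPM in experiment 1 (TCRb-/- and WT) to 24.5 and 37.7 CPM in experiment 2 (-1.46, limma adjusted p 0.00501). Shisa7 (-0.63), Cacng3 (-0.56), Shisa9 (-0.43) and Cnih3 (-0.23) fell less. Of the kainate partners Neto1 (-1.17) and Neto2 (-0.67) fell, while C1ql2, a secreted C1q-like protein of mossy fibre synapses, rose from 5.49 and 7.86 CPM to 25.6 and 11.7 CPM (1.28, limma adjusted p 0.0263).

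Of the 11 scaffold and trafficking genes 6 fell, against 14.7% of all genes tested. Grasp fell most (45.5 and 44.4 CPM in experiment 1, 15.7 and 24.7 CPM in experiment 2, -1.15). Dlg1, Dlg2 and Dlg3, which encode membrane-associated guanylate kinases of the synapse, differed by -0.72, -0.66 and -0.53. Nptx1, the other secreted pentraxin, fell from 98.2 and 97.8 CPM to 50.1 and 51.5 CPM (-0.93, limma adjusted p 0.00191). Adar fell by 0.29 on the log2 scale, and Adarb1, at 0.047, did not pass the threshold (limma adjusted p 0.779). Frrs1l, which helps assemble AMPA receptors, fell from 216 and 226 CPM to 163 and 177 CPM (-0.37).

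**Figure D5:**
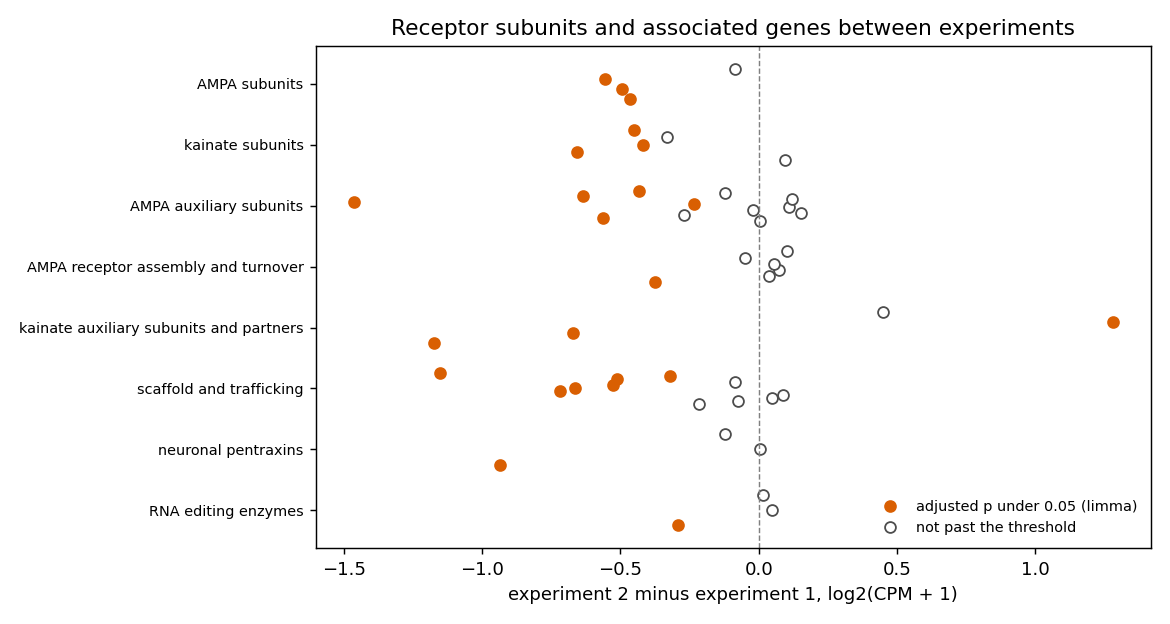
Difference between experiments (x axis, experiment 2 minus experiment 1 on the log2(CPM + 1) scale) of the 9 subunit genes and of associated genes in 6 lists. Filled points passed the adjusted threshold in limma. C1ql2, at 1.28, is the single filled point above 0, and Gsg1l, at -1.46, is the lowest.

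Grik2, the member with the widest range over libraries, was used to find genes of like pattern, by the distance between log2(CPM + 1) values centred on each gene's mean over the 4 libraries. The nearest of 13911 genes were Sema3a (distance 0.028), Fam171a1 (0.042), Rhbdl3 (0.050), Sptbn4 (0.055) and Kcnf1 (0.057), against a median distance of 0.681. Sema3a, for example, had 10.5 and 5.75 CPM in TCRb-/- and 9.12 and 6.04 CPM in WT. The nearest subunit gene was Gria2, at 0.182 and rank 248, and the farthest Grik1, at 0.752. With 4 libraries, many genes lie close to any pattern.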

How the data were processed

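RNA of septal tissue was measured in 4 libraries, 2 TCRb-/- and 2 WT, made from the supernatant of homogenate spun before and after detergent was added, using a SMARTer kit for low RNA input and Illumina sequencing, per the labels' protocols. The submitters' processing notes name HISAT2 2.1.0, SAMtools 1.3, HTSeq 0.9.1, R 4.0.5, limma 3.46.0 and mm10, with no role for each. For the row filter and strand setting: not given in the sources used here. The deposited values are on a log2 scale, as log2 CPM with 0.5 added to the reads and 1 to the library total, per the values; 100% came out as whole reads (tolerance 0.001 reads). The 17 spike-in rows were left out, and 12 gene rows share a symbol with another.

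Reads were converted to CPM and log2(CPM + 1), a scale that understates changes at low levels. Those with a mean at or above 1 CPM were fitted with limma 3.58.1 in R 4.3.3 (empirical Bayes with trend, two-sided, Benjamini-Hochberg over all 13912 genes, threshold 0.05), with genotype or experiment as the only term; the fit was tested on simulated data. Replicate numbers are the experiments in the labels and so pair the samples (deviations correlated at 0.72 across genes). Replicates differed beyond sampling noise (chi-square per degree of freedom 52.1 and 30.3). Lengths and positions are from GENCODE M21 (GRCm38, the same assembly as mm10). No listed gene overlaps a member. A count of 0 allows 3 reads; intervals of counts are exact Clopper-Pearson at 95% and cover counting error only. Python 3.11.15 was used otherwise.

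The members, gene lists and tests were chosen with earlier results of these data known. The 9 members are named whatever their values; of each associated list, the gene with the smallest p by genotype in each direction with the block, the gene with the largest called difference between experiments and any gene called by genotype are named. Trbc2, Ttr, Slc17a7, Snap25, Rbfox3, Syt1, Map2, Tubb3, Shisa7, Cacng3, Shisa9, Cnih3, Neto1, Dlg1, Dlg2 and Dlg3 fall outside that rule. They were chosen as examples after their values were seen. A list of 2 related genes is in the totals over the associated genes but is not reported here by gene. Each library is a pool, so p-values measure the spread between pools.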

Additional observations from a re-analysis of the deposited data

Results flagged for a closer look

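The genotype difference had opposite signs in the 2 experiments for 5 of the 9 subunit genes, each from 1 library per genotype and experiment, so the difference between experiments was not tested. On the log2(CPM + 1) scale, Gria2 had 0.11 in experiment 1 and -0.050 in experiment 2, Grik1 0.23 and -0.019, Grik2 0.23 and -0.061, Grik3 -0.025 and 0.11, and Grik5 0.058 and -0.20. Opposite signs were found in 48.4% of all genes tested.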

How the results depend on the processing

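Apart from the omission of single libraries, 231 alternative values left direction and call as they were (for counts and shares, the size), 7 lost a call and 20 moved. The genotype difference of each subunit gene kept its sign and stayed short of the threshold under all of these (adjusted p from 0.847 to 1.00 for Gria1). The replicate block changed no call of a subunit gene by genotype; the count of all genes called by genotype moved from 0 to 2 with the replicate block, alone or combined with median-of-ratios scaling, quantile normalization or voom weights. Between experiments, calls were lost without a trend by Gria1 (-0.47, adjusted p 0.0847), Gria2 (-0.49, 0.0505), Gria3 (-0.55, 0.0510), Grik3 (-0.42, 0.0551) and Grik5 (-0.45, 0.0605), and by Grik3 with quantile normalization, alone (-0.33, 0.0642) or joined to the block (-0.33, 0.0690). The count of all genes called between experiments was 629 without a trend. The share of higher calls among these was 37.8% in the main fit, 20.7% without a trend, 46.7% with median-of-ratios scaling and 50.6% with quantile normalization. The cause was not tested. Combinations with the block and the length of the union of exons were chosen after seeing the data.

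Shares depend on the length used, by construction. Without a length they were 30.8% for Gria1, 54.7% for Gria2, 8.56% for Gria3, 5.90% for Gria4, 11.2% for Grik1, 20.9% for Grik2, 14.1% for Grik3, 8.09% for Grik4 and 45.7% for Grik5. With the union of exons they were 48.9% for Gria1, 33.8% for Gria2, 8.34% for Gria3 and 8.98% for Gria4. In the kainate class they were then 11.1% for Grik1, 10.5% for Grik2, 10.5% for Grik3, 9.04% for Grik4 and 58.9% for Grik5.

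Leaving out a library leaves 1 in a genotype or experiment, assumed to vary like the others, and unbalances the experiments. By genotype the differences then ranged from -0.037 to 0.50 for Gria1, -0.26 to 0.32 for Gria2, -0.44 to 0.19 for Gria3, 0.010 to 0.14 for Gria4, -0.0036 to 0.21 for Grik1, -0.32 to 0.48 for Grik2, -0.20 to 0.29 for Grik3, -0.067 to 0.27 for Grik4 and -0.36 to 0.22 for Grik5. The counts ranged from 0 to 38 by genotype (38 without TCRb-/- replicate 1, 1 without TCRb-/- replicate 2) and from 1379 to 3395 between experiments (1379 without TCRb-/- replicate 1, 1797 without TCRb-/- replicate 2, 1680 without WT replicate 1). Between experiments the ranges were -0.62 to -0.31 for Gria1, -0.55 to -0.35 for Grik5, -0.47 to -0.36 for Grik3 and -0.021 to 0.21 for Grik1. Gria1 and Grik5 lost the call without TCRb-/- replicate 1, and Grik3 without that library, WT replicate 1 or WT replicate 2.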
